A study of Bos taurus with 6 samples.

Results

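The cluster of miR-191 and miR-425 gives 3 of the 1030 mature miRNAs listed for each liver library, namely bta-miR-191, bta-miR-425-5p and bta-miR-425-3p. The members were chosen by name, as products of 2 neighbouring hairpins, and the read count entered the rule only to take the largest count over the precursors of a mature miRNA. Each member has a single precursor, so that step changed none of their counts. The cluster was proposed with results of these libraries known, so the diet values below describe the members and are not independent support for a difference.

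Liver tissue of the left lobe was taken from 6 Wye Angus steers of a closed herd when they reached market weight, and small RNA was sequenced with 1 library per animal. The 3 grass-fed steers received mainly alfalfa, hay or grass pasture and were 21 months old. The 3 grain-fed steers received mainly corn silage, shelled corn, soybean and minerals and were 14 months old, so diet and age cannot be told apart. mRNA of the same livers was not analysed here, so no host gene level stands beside the miRNA levels.

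A miRNA hairpin is cut from a longer primary transcript, and the Dicer product carries a 5p and a 3p arm, of which usually one is loaded into Argonaute more often. Hairpins that lie close together are often cut from the same primary transcript, while the amount of each mature miRNA also depends on how well its hairpin is cut and how long the product lasts. In mammals miR-191 and miR-425 are such a pair, described in an intron of DALRD3, a gene whose protein takes part in tRNA methylation. Both are found in many tissues and in blood cells, and miR-191 is widely used as a reference in miRNA RT-qPCR. In the RefSeq annotation of ARS-UCD2.0, which is later than the ARS-UCD1.2 assembly used by the authors, MIR191, MIR191B and MIR425 follow each other between NDUFAF3 and DALRD3, and neither MIR191 nor MIR425 lies within the annotated bounds of DALRD3. MIR191B lies inside MIR191. Its mature product, bta-miR-191b, had 1 count in grass-fed replicate 1, grass-fed replicate 2 and grain-fed replicate 1 and 0 in the other 3 libraries, where a count of 0 allows up to 3 counts.

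The libraries held 3824592 to 6133960 miRNA counts in the grass-fed and 464875 to 892929 in the grain-fed group, a ratio of medians of 8.0. Counts were compared after scaling by the trimmed mean of M values (TMM), and levels are in CPM, the usual unit in which the counts of a miRNA are scaled to the TMM-adjusted total of its library. The TMM factor of grass-fed replicate 2 was 0.692, and those of the other 5 libraries ranged from 0.936 to 1.21. Values of single libraries are given in the order of replicates 1, 2 and 3. The hepatocyte miRNA bta-miR-122 was the most abundant in both groups, with 26.2 to 31.7% of grass-fed and 14.9 to 21.6% of grain-fed counts. All 5 hepatocyte markers were detected, with summed levels of 516689 to 820806 CPM and 328257 to 389910 CPM. The 3 erythroid markers summed to 419 to 643 CPM in grass-fed and 465 to 665 CPM in grain-fed liver, and the 5 leukocyte markers to 743 to 993 CPM and 943 to 1132 CPM. None of these 8 blood markers passed a false discovery rate (FDR) of 0.1 in the edgeR quasi-likelihood test. An unadjusted p below 0.05 in that test was found for 3 of the 5 leukocyte markers, beside 115 of the 456 tested miRNAs. These 3, bta-miR-142-3p (log2 fold change -0.98), bta-miR-223 (-0.62) and bta-miR-150 (-0.51), were lower in grass-fed liver. Of the 5 leukocyte markers 1, bta-miR-155 (0.40), was higher. Endothelial markers summed to 11449 to 16152 CPM and 9476 to 14335 CPM, mesenchymal markers to 77106 to 112494 CPM and 71674 to 84602 CPM, and muscle markers to 312 to 522 CPM and 195 to 352 CPM. The 4 pancreas markers summed to 32.3 to 36.0 CPM and 14.2 to 136 CPM, and 3 of them were called lower in grass-fed liver, among them bta-miR-216a with 0 counts in the grass-fed and 8 in the grain-fed group. None of these 3 separated the groups in level, and bta-miR-217 had 20.2 ± 22.2 CPM (SD, n = 3) in grain-fed liver. Calls in either direction made up 19.1% of all tested miRNAs. Of the other lists, 2 of the 5 hepatocyte markers, bta-miR-122 (log2 fold change 1.12, FDR = 0.00419, edgeR) and bta-miR-192 (0.65, FDR = 0.0286, edgeR), were called higher in grass-fed liver. The same held for 2 of the 4 mesenchymal markers, bta-miR-145 (1.09, FDR = 0.00597, edgeR) and bta-miR-199a-3p (0.62, FDR = 0.0532, edgeR), and for none of the endothelial or muscle markers. Of all tested miRNAs, 9.43% were called in that direction. The hepatocyte marker bta-miR-194 went the other way without a call (-0.43, FDR = 0.300, edgeR), and the other 4 hepatocyte markers had values above 0. The part of these cell types in the levels of the cluster was not tested.

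bta-miR-191, the most abundant member, was higher in the livers of grass-fed steers. It had 13004, 14437 and 9743 counts in the grass-fed libraries and 1892, 1167 and 1056 counts in the grain-fed libraries. After TMM scaling these came to 2738, 3402 and 2557 CPM for the grass-fed and 1843, 1652 and 1874 CPM for the grain-fed group. Each grass-fed library thus lay above each grain-fed library, with grass-fed replicate 2 the highest and grain-fed replicate 2 the lowest. The means were 2899 ± 445 CPM (SD, n = 3) and 1790 ± 120 CPM (SD, n = 3), a log2 fold change of 0.70 with a standard error of 0.20 (FDR = 0.0324, edgeR quasi-likelihood test, Benjamini-Hochberg adjusted over all tested miRNAs). The call was lost without grain-fed replicate 2, with a log2 fold change of 0.55 (FDR = 0.173, edgeR). With total counts in place of TMM it was lost as well. There the values were 2561, 2354 and 2547 CPM against 2119, 1838 and 2272 CPM, still without overlap, but the log2 fold change was 0.26 (FDR = 0.448, edgeR). Without grass-fed replicate 2 the log2 fold change after TMM scaling was 0.56 (FDR = 0.0430, edgeR). In bulk liver, fewer cells of a type and less RNA per cell cannot be told apart.

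The 5p arm of miR-425 pointed the other way and did not pass FDR 0.1 after TMM scaling. bta-miR-425-5p had 633, 424 and 465 counts in the grass-fed libraries and 168, 121 and 84 counts in the grain-fed libraries. Its TMM-scaled levels were 133, 99.9 and 122 CPM for the grass-fed and 164, 171 and 149 CPM for the grain-fed group. Again the groups did not overlap, and grass-fed replicate 2, the library with the most bta-miR-191 after TMM scaling, had the least bta-miR-425-5p. With total counts that library had the lowest grass-fed level of both, at 2354 and 69.1 CPM. The group means were 118 ± 17.0 CPM (SD, n = 3) and 161 ± 11.3 CPM (SD, n = 3), and the log2 fold change was -0.45 with a standard error of 0.23 (FDR = 0.225, edgeR). With total counts in place of TMM the levels were 125, 69.1 and 122 CPM against 188, 191 and 181 CPM. In that setting the log2 fold change was -0.83 and the miRNA was called lower in grass-fed liver (FDR = 0.0803, edgeR). After TMM scaling without grass-fed replicate 2 it was -0.35 (FDR = 0.306, edgeR).

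The 3p arm of miR-425, the less abundant product of the hairpin, had 142, 112 and 87 counts in the grass-fed libraries and 33, 20 and 12 counts in the grain-fed libraries. The TMM-scaled levels of bta-miR-425-3p were 29.9, 26.4 and 22.8 CPM for the grass-fed and 32.1, 28.3 and 21.3 CPM for the grain-fed group. The groups overlapped, and the grain-fed libraries spanned the wider range. The log2 fold change was -0.08 with a standard error of 0.29 (FDR = 0.894, edgeR), and its sign turned without grain-fed replicate 1, to 0.026, and with upper-quartile normalization, to 0.098.

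**Figure D1:**
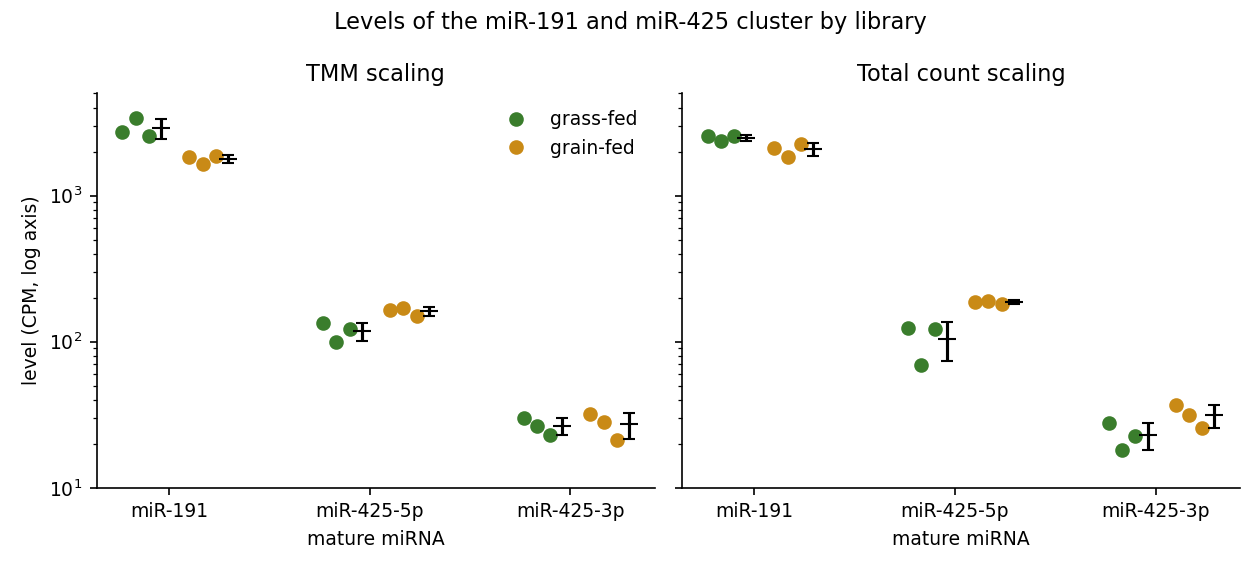
Level of each member in each library (CPM, log axis) after TMM scaling (left) and after scaling by total count (right), with the 3 libraries of a group in the order of their replicate numbers and the group mean ± SD in black. Grass-fed bta-miR-191 lies above grain-fed and bta-miR-425-5p below it under both scalings, while the groups overlap for bta-miR-425-3p.

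In the fit over all miRNAs, 1 of the 3 members passed FDR 0.1, beside 19.1% of the 456 tested miRNAs, and that member was higher in grass-fed liver. Calls in that direction made up 9.43% of all tested miRNAs. For 2 of the 3 members the TMM-scaled levels did not overlap between the groups, beside 32.9% of all tested miRNAs. Of the 87 called miRNAs 43 were higher in grass-fed liver after TMM scaling, against 9 of 74 with total counts and 82 of 124 with upper-quartile normalization. An exact permutation test (two-sided) of 1 miRNA cannot fall below p = 0.1 in this design, the value that both bta-miR-191 and bta-miR-425-5p reached.

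Because the scaling moved every fold change, the members were also read against the median of all tested miRNAs. That median was 0.13 on the log2 scale with TMM, -0.29 with total counts and 0.31 with upper-quartile normalization. The log2 fold change of bta-miR-191 stood 0.56 above the median with TMM, 0.55 above it with total counts and 0.56 above it with upper-quartile normalization. That of bta-miR-425-5p minus the median was -0.58, -0.55 and -0.57 in the same order, and that of bta-miR-425-3p was -0.21, -0.21 and -0.22. A change of scaling moves all miRNAs by about the same amount, so these differences stay alike by construction and are no check of the calls.

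**Figure D2:**
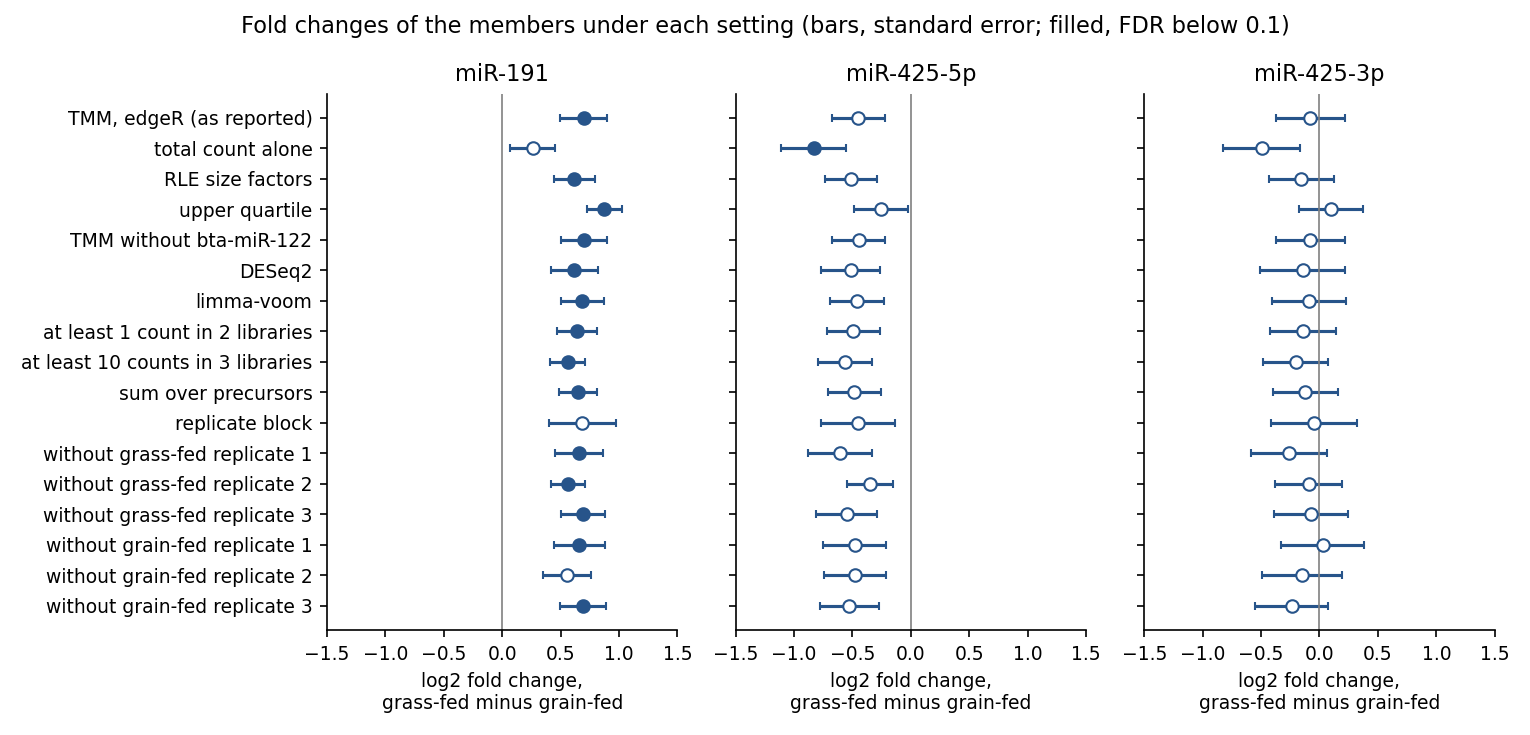
Log2 fold change (grass-fed minus grain-fed) of each member with its standard error under every scaling, test, filter and left-out library, with filled points for FDR below 0.1. bta-miR-191 is above 0 and bta-miR-425-5p below 0 in every setting shown, and the values of bta-miR-425-3p lie on both sides of 0.

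The balance within the cluster needs no scaling between libraries, since both miRNAs are counted in the same library. Per count of bta-miR-425-5p there were 20.5, 34.0 and 21.0 counts of bta-miR-191 in the grass-fed libraries and 11.3, 9.64 and 12.6 in the grain-fed libraries. The lowest grass-fed ratio was above the highest grain-fed ratio, and their exact 95% counting intervals, 19.0 to 22.3 in grass-fed replicate 1 and 10.1 to 15.9 in grain-fed replicate 3, did not overlap. Counts are reads without molecular identifiers, so these intervals cover counting error only. The mean ratio was 25.2 ± 7.68 (SD, n = 3) in grass-fed and 11.2 ± 1.47 (SD, n = 3) in grain-fed liver. On the log2 scale the difference was 1.14 with a standard error of 0.26, a 2.21-fold higher ratio, and the two-sided exact permutation p was 0.1, the smallest that this design allows. Grass-fed replicate 2 raised the grass-fed mean, and without it the difference was 0.90.

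The same shift was seen as shares of all counts of the cluster. bta-miR-191 made up 94.4, 96.4 and 94.6% of the cluster in the grass-fed libraries and 90.4, 89.2 and 91.7% in the grain-fed libraries. Per count of bta-miR-425-3p the counts of bta-miR-191 ranged from 91.6 to 129 in grass-fed and from 57.3 to 88.0 in grain-fed liver, a difference of 0.72 on the log2 scale with a standard error of 0.25 (exact permutation p = 0.1). With both arms of miR-425 summed, the ratio of bta-miR-191 was 2.10-fold higher in grass-fed liver, and its values did not overlap between the groups.

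**Figure D3:**
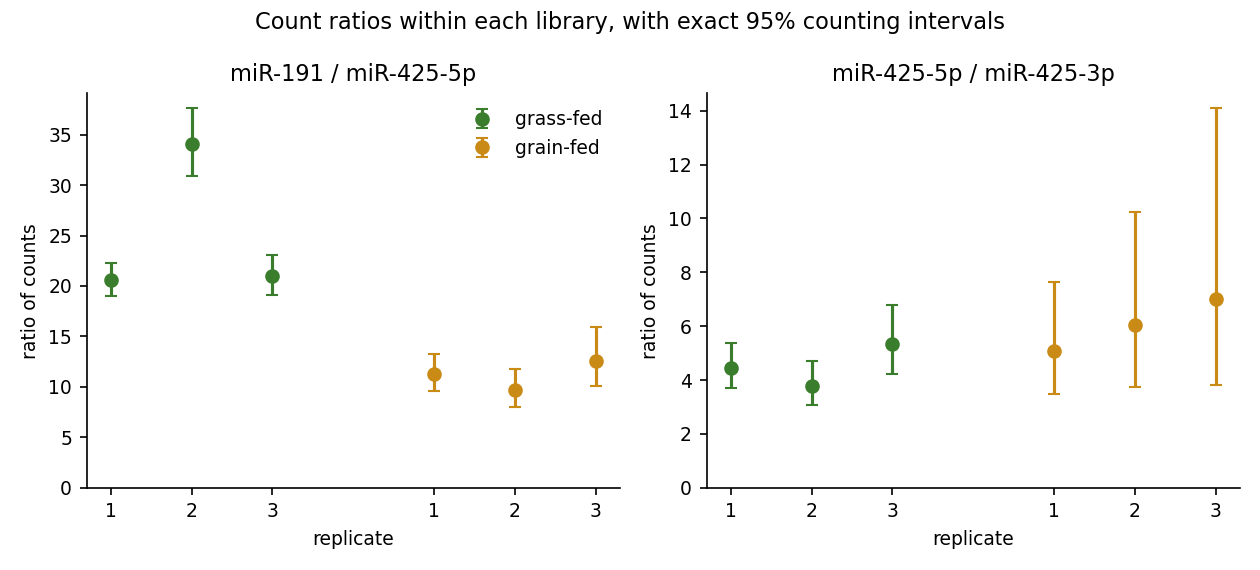
Ratio of counts within each library for bta-miR-191 over bta-miR-425-5p (left) and bta-miR-425-5p over bta-miR-425-3p (right), by group and replicate, with exact 95% counting intervals as bars. The left panel shows 20.5 or more in every grass-fed and 12.6 or less in every grain-fed library, and the right panel shows ranges that overlap.

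Ratios that separate the diets were common in these libraries. Of the 13203 pairs that can be formed from the 163 miRNAs with a mean count of at least 100, 47.1% had ratios that did not overlap between the groups, and 23.7% differed between the groups by at least as much as bta-miR-191 and bta-miR-425-5p. These pairs share miRNAs and libraries and serve only as a background. Some of the 163 entries had equal levels, such as bta-miR-339a and bta-miR-339b, and were not merged.

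Other clusters whose hairpins are described as cut from 1 primary transcript also held members with unlike fold changes. Of the 1030 mature miRNAs, 106 have over 1 precursor, and cluster members with a further precursor elsewhere were not set apart. A gap between members therefore need not arise within 1 transcript. Among 16 such clusters with at least 2 tested members, the gap between the highest and the lowest log2 fold change of a cluster had a median of 0.77. Over all pairs of miRNAs with a mean count of at least 100, the difference of the log2 count ratio between the groups had a median size of 0.60. These medians are not alike in kind, since a gap can only widen with further members. Of the 16 clusters, 2 had a wider gap than the 1.14 between bta-miR-191 and bta-miR-425-5p. Those 2 were the miR-17-92 cluster, with a gap of 1.40 over 6 tested members, and the pair of bta-miR-181c and bta-miR-181d, with 1.21. That pair had only 14 and 17 counts in the whole grain-fed group, and its fold changes had standard errors of 0.49 and 0.50. In 6 of the 16 the members lay on both sides of 0 after TMM scaling, as in the cluster of miR-191 and miR-425. In the liver pair of bta-miR-192 and bta-miR-194, for example, the log2 fold changes were 0.65 (FDR = 0.0286, edgeR) and -0.43 (FDR = 0.300, edgeR). The gap was 0.10 between bta-miR-15a (-0.30, standard error 0.25) and bta-miR-16a (-0.20, standard error 0.22), less than either standard error. The count ratio of the 2 most abundant members did not overlap between the diets in 11 of the 16 clusters. This stands beside 47.1% of all pairs of miRNAs with a mean count of at least 100. Some cluster members lay below that count, such as bta-miR-181c with a mean of 10.8.

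**Figure D4:**
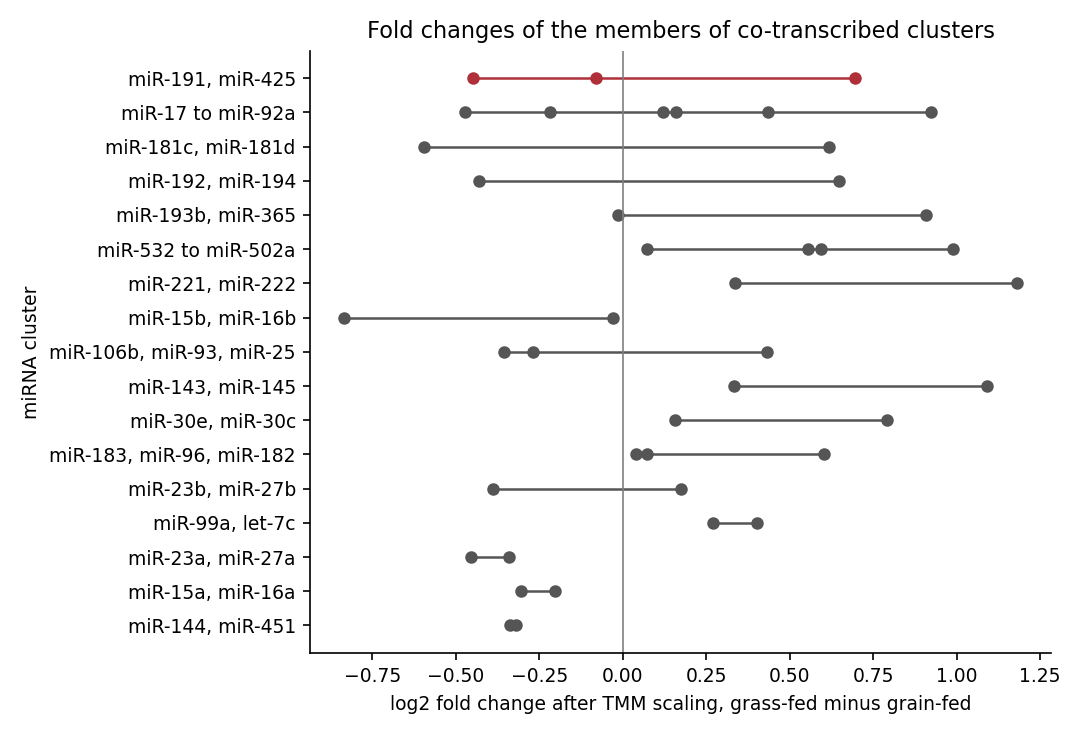
Log2 fold change (grass-fed minus grain-fed, after TMM scaling) of every tested member of the cluster of miR-191 and miR-425 (red, top) and of 16 other co-transcribed clusters (grey), ordered by the gap between their members. The red points run from -0.45 to 0.70, a gap that only the clusters of miR-17-92 and of miR-181c and miR-181d exceed.

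The 2 arms of miR-425 are cut from the same hairpin, and 5p was the more abundant arm in all 6 libraries. Per count of bta-miR-425-3p there were 4.46, 3.79 and 5.34 counts of bta-miR-425-5p in the grass-fed libraries and 5.09, 6.05 and 7.0 in the grain-fed libraries. The 3p arm made up 18.3, 20.9 and 15.8% of the miR-425 counts in grass-fed libraries. In grain-fed libraries it made up 16.4, 14.2 and 12.5%, with exact 95% intervals that widened to 6.63 to 20.8% in grain-fed replicate 3, where the 3p arm had 12 counts. The groups overlapped, since grass-fed replicate 3 lay beyond grain-fed replicate 1. The log2 ratio of 5p to 3p was 2.16 ± 0.25 (SD, n = 3) in grass-fed and 2.55 ± 0.21 (SD, n = 3) in grain-fed liver, a difference of -0.39 with a 95% interval from -1.08 to 0.29 (FDR = 0.342, limma over all tested hairpins), and the exact permutation p was 0.2. A change in arm use was therefore not detectable with these 6 libraries, and the interval still allows one of about 1 on the log2 scale.

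Among the 37 hairpins with both arms above the count filter, 21.6% passed FDR 0.1 in the limma fit of the arm ratio, a number that fell from 8 to 0 without any 1 of grass-fed replicates 1 and 2 and grain-fed replicate 3, and to 2 without grain-fed replicate 2. miR-425 ranked 23 of 37 by p and 32 of 37 by the size of the difference, so its arm ratio was among the more even ones between the diets. The entries bta-miR-10174 and bta-miR-23b had equal mean counts on both arms and equal arm ratios. They cannot be told apart here, and both were kept among the 37. The smallest p values were those of the bta-miR-30b, bta-miR-2411 and bta-miR-99a hairpins, with differences of -2.03, 3.41 and 1.07 on the log2 scale. The hairpins with a 5p to 3p ratio nearest to the 5.12 of miR-425 were bta-miR-6119, bta-miR-503 and bta-miR-129, with 4.82, 4.80 and 5.78, and none of them passed FDR 0.1 (0.685, 0.532 and 0.532, limma).

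**Figure D5:**
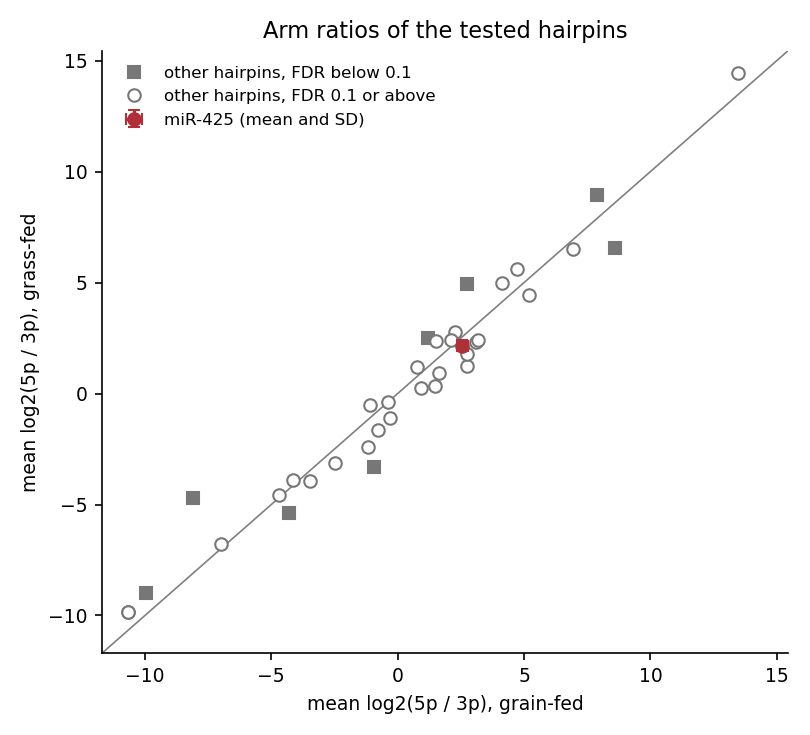
Mean log2 ratio of 5p to 3p counts in grain-fed (x) against grass-fed (y) liver for the 37 hairpins with both arms above the count filter, with miR-425 in red (mean and SD over 3 libraries) and filled squares for FDR below 0.1. miR-425 lies close to the line of equal ratios, at 2.55 and 2.16.

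After TMM scaling, the spread between animals was below the median of the abundant miRNAs for bta-miR-191 and bta-miR-425-5p in both groups. The coefficient of variation of bta-miR-191 was 15.3% in grass-fed and 6.70% in grain-fed liver, where counting error alone gives 0.911 and 2.79%. For the 163 miRNAs with a mean count of at least 100 the median was 19.0 and 15.5%. In grass-fed liver bta-miR-425-5p varied by 14.3% and bta-miR-425-3p by 13.4%, where counting error alone gives 4.51 and 9.57%. In grain-fed liver the variation of bta-miR-425-5p, 7.02%, and of bta-miR-425-3p, 20.2%, did not exceed the 9.33 and 23.4% that counting error alone gives. The spread depended on the scaling. In grass-fed liver bta-miR-191 had 2899 ± 445 CPM with TMM and 2487 ± 116 CPM with total counts (SD, n = 3 each). For bta-miR-425-5p these values were 118 ± 17.0 and 105 ± 31.2 CPM (SD, n = 3 each). With 3 animals a group, the size of any difference between animals beyond counting error is therefore not settled. For both arms of miR-425 in grain-fed liver no such difference was seen.

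Likeness of pattern was measured as the root mean square distance between the centred log2 CPM of 2 miRNAs over the 6 libraries, as a description of these libraries. Nearest to bta-miR-191 were bta-miR-199c and bta-miR-199a-3p, each with a distance of 0.044, and bta-miR-199a-5p with 0.091. bta-miR-199a-3p is 1 of the 4 mesenchymal markers above, called higher in grass-fed liver like bta-miR-191, and its part in the level of bta-miR-191 was not tested. The counts of bta-miR-199c and bta-miR-199a-3p were within 1 of each other in every library, so these entries cannot be told apart here. Nearest to bta-miR-425-5p were bta-miR-23a with 0.069, bta-miR-93 with 0.10 and bta-miR-15a with 0.12. bta-miR-191 and bta-miR-425-5p were not close to each other by this measure. Among the 163 miRNAs compared with bta-miR-191, bta-miR-425-3p ranked 100 and bta-miR-425-5p ranked 137. Among those compared with bta-miR-425-5p, bta-miR-425-3p ranked 28 and bta-miR-191 ranked 114. The other miRNAs compared had a mean count of at least 100, while bta-miR-425-3p had 67.7 and was compared as a member. Its distance to bta-miR-425-5p was 0.28, and counting error alone gave it a variation of 23.4% in grain-fed liver. Its ranks therefore do not show that the 2 arms differ in pattern.

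bta-miR-191 was also set beside 15 other miRNAs that are often used as RT-qPCR references. Of these 15, 4 were called higher and 1 lower in grass-fed liver after TMM scaling, at FDR 0.1 in edgeR. Among all tested miRNAs 9.43% were called higher and 19.1% in either direction. A log2 fold change above 0 was found for 9 of the 15, and their median was 0.16, beside 0.13 for all tested miRNAs. The log2 fold change of bta-miR-191, 0.70, was like that of bta-let-7a-5p (0.70, FDR = 0.0532, edgeR). The widest values were those of bta-miR-423-5p with 1.43 and bta-miR-16b with -0.83, and both were called. bta-miR-186 (0.04) and bta-miR-361 (-0.09) had values near 0 and levels of 1536 ± 383 and 182 ± 18.6 CPM (SD, n = 3 each) in grass-fed liver.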

How the data were processed

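Small RNA libraries from 3 grass-fed and 3 grain-fed livers were used, grouped by their sample titles. The authors removed adapters, low-quality reads and reads outside a length range, mapped the rest to ARS-UCD1.2 and counted known miRBase miRNAs with miRDeep2, with a version not given in the sources used here. FastQC and Trimmomatic are named by the submitters' processing notes, in versions 0.11.5 and 0.36. The deposited counts are raw reads per mature miRNA and precursor. The deposited CPM values divide them by the library total and were not used.

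The 456 miRNAs with over 2 counts in 2 or more libraries were tested in edgeR version 4.0.16 (R version 4.3.3) with TMM scaling, the quasi-likelihood test, Benjamini-Hochberg adjustment over all of them and FDR 0.1. The standard error is the log2 fold change divided by the root of F. Arm ratios, with 0.5 added to each count, were fitted in limma version 3.58.1. DESeq2 version 1.42.0, limma-voom, other scalings and filters, the replicate block and left-out libraries were alternatives. The tests were checked on simulated data. Libraries of 1 group differed beyond sampling noise.

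The members, marker lists, cluster lists and reference list, written from general knowledge, were chosen with earlier results of these data known. The miRNAs named are the members, the 3 nearest in pattern to bta-miR-191 and to bta-miR-425-5p, at most 4 of each list by abundance or size of change, the 3 hairpins with the smallest p and the 3 nearest to miR-425 in arm ratio. bta-miR-186 and bta-miR-361, the clusters given as examples and the entries named for equal counts were named after their values were seen.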

Additional observations from a re-analysis of the deposited data

How the results depend on the processing

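The direction of bta-miR-191 and bta-miR-425-5p held in all 10 alternatives and with each of the 6 libraries left out. bta-miR-191 kept its call in 8 of the 10, and lost it with total counts alone (log2 fold change 0.26) and with the replicate block (0.69, FDR = 0.109, edgeR). With each library left out it lay between 0.55 and 0.69, and the call was lost without grain-fed replicate 2 only. bta-miR-425-5p was called in 1 of the 10, with total counts alone (-0.83), and lay between -0.61 and -0.35 with a library left out. bta-miR-425-3p turned to 0.098 with upper-quartile normalization, and lay between -0.26 and 0.026 with a library left out. The ratio of bta-miR-191 to bta-miR-425-5p lay between 0.90 and 1.27 on the log2 scale, and the arm ratio of miR-425 between -0.52 and -0.27 with a library left out and between -0.41 and -0.36 in the alternatives, never passing FDR 0.1. The number of DEmiRNAs, 87, lay between 70 (at FDR 0.05) and 124 (upper-quartile normalization) in the alternatives and between 49 and 86 with a library left out, with 49 without grain-fed replicate 2. Of the calls 44 were lower in grass-fed liver, against 65 of 74 with total counts and 42 of 124 with upper-quartile normalization. The deviations of libraries with the same replicate number correlated at -0.05, -0.20 and -0.01 across miRNAs, so the numbers did not pair the animals. The block moved the number of DEmiRNAs to 82. The cause of these shifts was not tested.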
